A study of Homo sapiens with 12 samples.

Results

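The 10 mRNAs described here encode regulators known for short-lived mRNAs: the growth-promoting transcription factor MYC, the Krüppel-like transcription factors KLF2, KLF4, KLF6 and KLF10, the AU-rich element binding proteins ZFP36, ZFP36L1 and ZFP36L2, and the antiproliferative proteins BTG1 and BTG2. They were taken from a table of ribosome footprint densities by their Ensembl identifiers: ENSG00000136997 (MYC), ENSG00000127528 (KLF2), ENSG00000136826 (KLF4), ENSG00000067082 (KLF6), ENSG00000155090 (KLF10), ENSG00000128016 (ZFP36), ENSG00000185650 (ZFP36L1), ENSG00000152518 (ZFP36L2), ENSG00000133639 (BTG1) and ENSG00000159388 (BTG2). All 10 were found among its 19580 genes, and all 10 were among the 11510 genes tested, those that reached 1 RPKM in 3 libraries or more. RPKM is the number of reads scaled by transcript length and by the library total. All groups were wild-type HAP1, a human line with a nearly haploid genome derived from the KBM-7 leukaemia line. The 4 groups of 3 biological replicates were cells given 5 uM 4-thiouridine (4SU) for 18 h and then 6 kJ/m2 of UVA (4SU+UVA), cells given 4SU without light (4SU), cells given UVA without 4SU (UVA), and untreated cells, with harvest 30 min after irradiation. 4SU is a uridine analogue that is built into new RNA and binds nearby protein covalently when excited by UVA. Whether the unirradiated cells were handled like the irradiated ones is not stated in the labels. Changes given below as effects of light therefore include any difference in handling.

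Many short-lived mRNAs carry AU-rich elements in their 3′ untranslated regions. ZFP36 proteins bind such elements through their CCCH zinc fingers and bring in the CCR4-NOT deadenylase, which shortens the poly(A) tail and starts decay. BTG1 and BTG2 bind the catalytic subunits of the same complex and promote poly(A) shortening, so the set holds both short-lived mRNAs and proteins that shorten mRNA lifetimes. Since a short-lived mRNA is replaced quickly, its level can follow a change in transcription or decay soon after a stimulus.

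Depth ranged from 1899854 to 5832366 reads per library, and the shallowest was a 4SU+UVA library. Counts of reads, recovered from the steps of the RPKM values, gave each mRNA 15 to 2031 reads in a library. MYC was the best measured, with 710 to 2031 reads, and ZFP36 the least, with 15 to 64. KLF4 had 40 to 88 reads and KLF10 30 to 126. These counts limit what could be seen for ZFP36, KLF4 and KLF10. The transcripts were 1747 nt (ZFP36) to 4629 nt (BTG1) long, with a median of 2878 nt against 2616.5 nt over all tested genes. RPKM here is scaled by the length of the whole transcript, while ribosome footprints lie mostly in coding sequence. The order of levels between mRNAs given next is therefore an order of RPKM, which also depends on how much of each transcript is untranslated. Footprint density depends on how much of an mRNA there is, on the ribosomes it carries, moving or stalled, and on how well footprints are recovered. Whether crosslinking changed stalling or recovery was not tested. In a lysate of many cells a change in some cells cannot be told apart from a smaller one in all.

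In untreated cells MYC had the highest RPKM by far, at 137 ± 7.31 RPKM (SD, n = 3), higher than 93.7% of tested genes. ZFP36L2 followed at 20.7 ± 0.534 RPKM, BTG2 at 16.9 ± 3.57 RPKM and KLF6 at 11.6 ± 1.18 RPKM, and the median tested gene had 9.92 RPKM. ZFP36L1 at 10.1 ± 0.562 RPKM overlapped KLF6 in its libraries. Below these lay KLF2 (5.97 ± 0.183 RPKM), BTG1 (5.82 ± 0.813 RPKM), KLF10 (5.38 ± 0.622 RPKM), KLF4 (4.64 ± 0.607 RPKM) and ZFP36 (3.69 ± 0.763 RPKM), and in this lower series each mRNA's libraries overlapped those of the next. With 4SU+UVA the order was different: MYC stayed at the top with 179 ± 3.96 RPKM, BTG2 was next at 59.4 ± 8.03 RPKM, and then came KLF6 at 33.6 ± 3.25 RPKM, none of them overlapping its neighbours. The plot of footprint density by group shows all 12 values of each mRNA.

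**Figure D1:**
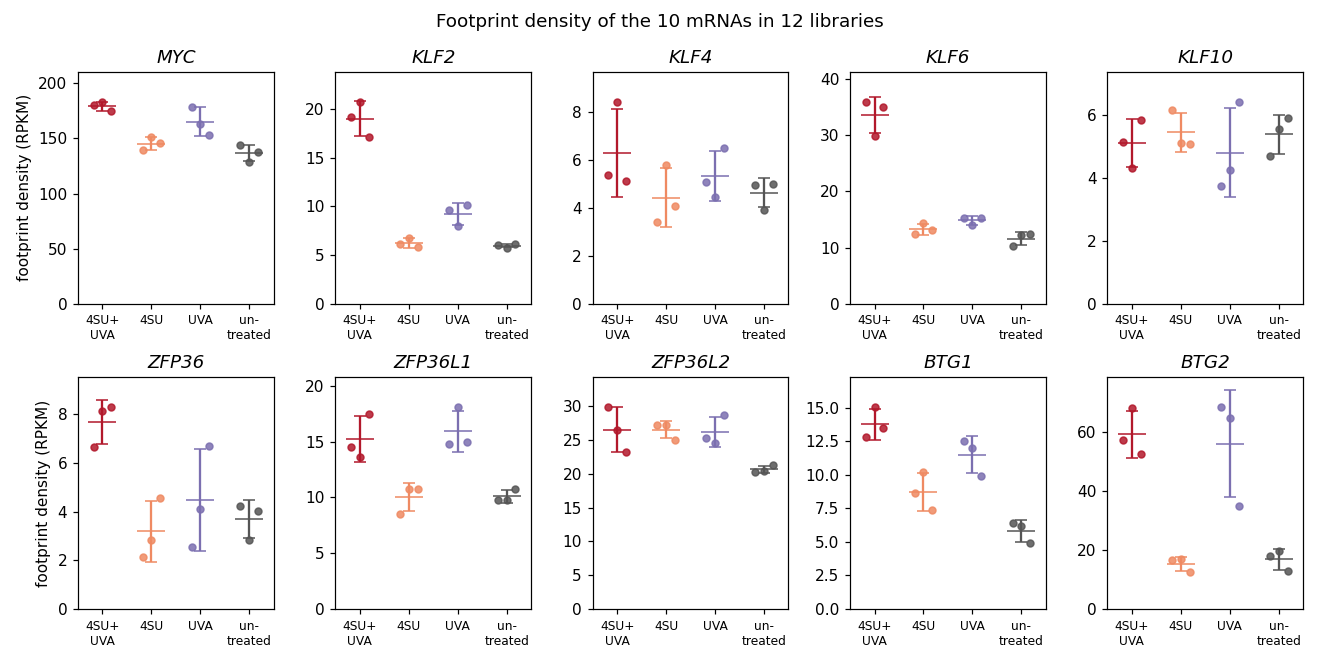
Footprint density in RPKM (vertical axis, from 0, with its own scale in each panel) of each mRNA in the 4SU+UVA, 4SU, UVA and untreated libraries (points, 3 per group, replicates 1 to 3 from left to right), with the group mean (wide bar) and SD (error bar). BTG2 is high in both irradiated groups, KLF2 and KLF6 stand highest with 4SU+UVA, and KLF10 overlaps in all groups.

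According to the study's design, 4SU and UVA were combined to crosslink protein to RNA, and the first comparison sets these cells against untreated ones. Footprint density was higher at 8 of the 10 mRNAs and lower at none (limma, adjusted p under 0.05, 3 libraries per group), and KLF4 and KLF10 did not pass. Among all tested genes 40.6% were higher by the same rule, so a call by itself does not set an mRNA apart. All 4SU+UVA libraries lay above all untreated ones at 9 of the 10, against 43.6% of tested genes. The sizes varied between the mRNAs, and the median of the 10 was 0.77 on the log2 scale against 0.23 for all genes. The 10 were chosen with earlier results of these data known. Here and below, their shares and medians against all genes are thus descriptions and do not test short-lived mRNAs as a class. BTG2, KLF2, KLF6 and BTG1 changed by 3.48-, 3.01-, 2.82- and 2.26-fold, and only 0.66%, 1.05%, 1.36% and 3.61% of tested genes lay above them. The rest lay further down. For ZFP36, ZFP36L1, MYC and ZFP36L2, also called, 7.02%, 25.4%, 37.9% and 41.1% of tested genes lay above. For KLF4 and KLF10 it was 38.6% and 71.2%. Changes are on the log2(RPKM + 0.5) scale, which understates those of low values.

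UVA alone called fewer genes than any other comparison, with 0.278% of tested genes higher. Of the 10 mRNAs, 4 were called higher, BTG2, BTG1, ZFP36L1 and KLF2, and none lower (limma, adjusted p under 0.05). The median over the 10 was 0.34 on the log2 scale, against 0.05 for all genes. The UVA libraries lay wholly above the untreated ones at 7 of the 10, a separation found upward at 12.8% of tested genes. Since the choice of the 10 followed earlier results, these contrasts with all genes do not test them as a set. Only the calls of BTG1 and BTG2 held in all 20 alternative settings, as given below for each mRNA. With 4SU alone 2 of the 10 were higher (ZFP36L2 and BTG1), against 11.3% of tested genes, and the median of the 10 was 0.04 against 0.09 for all genes. The 4SU libraries lay above the untreated ones at 3 of the 10, KLF6, ZFP36L2 and BTG1, against 25.1% of tested genes.

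**Figure D2:**
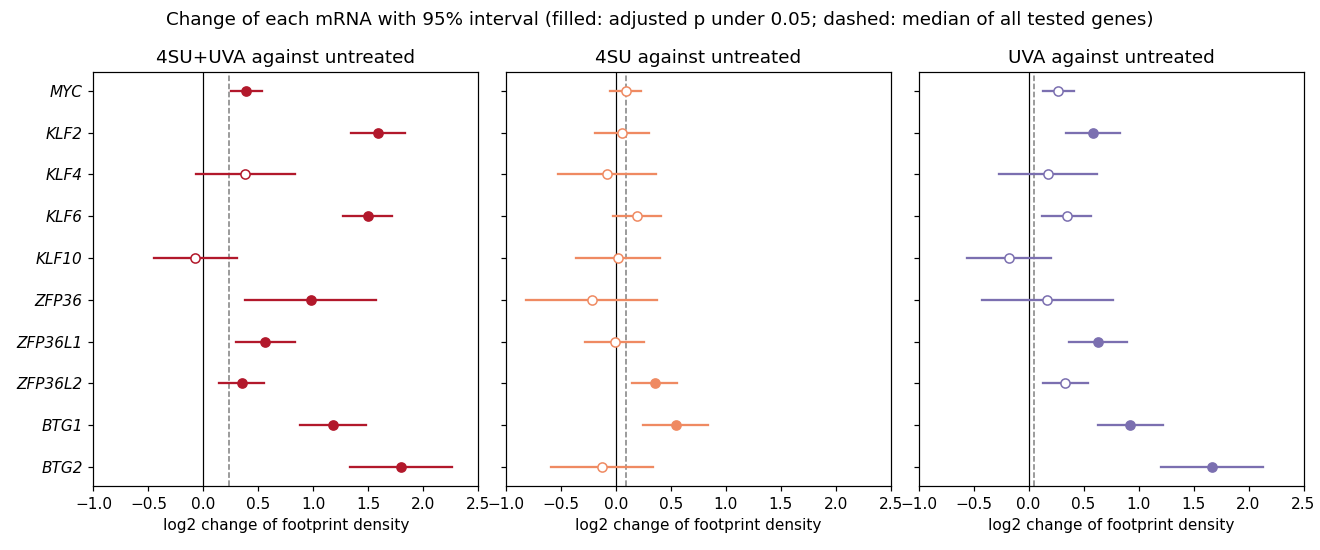
Change of each mRNA against untreated cells on the log2(RPKM + 0.5) scale (horizontal axis) with 4SU+UVA, 4SU and UVA, as the estimate (point) with its 95% interval (line). Filled points have a limma adjusted p under 0.05, and the dashed line is the median of all tested genes, 0.23 for 4SU+UVA, 0.09 for 4SU, 0.05 for UVA.

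BTG2 and BTG1, the deadenylation-promoting pair, were higher in irradiated cells whether or not 4SU was present. The promoter stretches of both are shown because these 2 were the most responsive to UVA alone: the 250 bases before the RefSeq gene start (GRCh38.p14), 5′ to 3′ on the gene's strand. Capitals mark matches on either strand to TGACG, the core of the cAMP response element (CRE), to GCGGGGGCG, the EGR site, and to TATAAA, the TATA box. BTG2 lies on chr1:203305269-203305518 (plus strand) and BTG1 on chr12:92145847-92146096 (minus strand).
BTG2: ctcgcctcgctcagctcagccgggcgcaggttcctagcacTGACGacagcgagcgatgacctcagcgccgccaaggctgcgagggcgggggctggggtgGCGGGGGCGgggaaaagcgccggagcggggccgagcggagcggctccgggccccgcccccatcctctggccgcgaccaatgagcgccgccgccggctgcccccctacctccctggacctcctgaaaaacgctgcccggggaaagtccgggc
BTG1: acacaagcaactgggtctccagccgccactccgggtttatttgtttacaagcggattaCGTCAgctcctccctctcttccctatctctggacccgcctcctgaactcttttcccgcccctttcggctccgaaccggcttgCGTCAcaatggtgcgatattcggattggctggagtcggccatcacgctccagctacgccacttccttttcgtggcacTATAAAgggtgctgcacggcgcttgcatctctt
BTG1 held 2 TGACG matches and a TATA box 33 to 28 bases before its start, and BTG2 held 1 TGACG and 1 EGR match that do not overlap. TGACG occurred in 21.2% of the 35116 promoter windows of the same length, TATAAA in 10.7% and GCGGGGGCG in 4.72%. No full CRE, TGACGTCA, was in either window. A match is a string of letters in a window, and binding there was not measured.

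BTG2 had 57.4, 68.3 and 52.6 RPKM with 4SU+UVA, 16.6, 16.9 and 12.5 RPKM with 4SU, 68.5, 64.9 and 35.2 RPKM with UVA, and 18.1, 19.7 and 12.9 RPKM in untreated cells. Every irradiated library lay above every unirradiated one, and UVA replicate 3 stood well below the other UVA libraries. Light raised BTG2 by 3.18-fold without 4SU (log2 1.67, SE 0.22, limma adjusted p = 0.000759), the 8th largest rise of the 11510 genes tested. In cells that carried 4SU it rose by 3.79-fold (log2 1.92, SE 0.22, limma adjusted p = 7.79e-06). The difference between these responses, the interaction, was 0.26 with a 95% interval of -0.40 to 0.91 (limma adjusted p = 0.584), which leaves room for a difference in either direction. Without UVA replicate 3 the change with UVA alone was 1.97 and the interaction -0.05. 4SU alone left BTG2 at 15.3 ± 2.46 RPKM, against 16.9 ± 3.57 RPKM in untreated cells (SD, n = 3 each; log2 -0.13, limma adjusted p = 0.739).

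BTG1 had 12.8, 15.0 and 13.5 RPKM with 4SU+UVA, 8.61, 10.2 and 7.37 RPKM with 4SU, 12.54, 11.98 and 9.93 RPKM with UVA, and 6.39, 6.18 and 4.89 RPKM in untreated cells. It was lowest in untreated cells, higher with either treatment, and highest with both, where the libraries did not overlap any other group. It rose 1.9-fold with UVA alone (log2 0.92, SE 0.14, limma adjusted p = 0.00288) and 2.26-fold with 4SU+UVA (log2 1.18, SE 0.14, limma adjusted p = 6.93e-06). BTG1 had the larger of the 2 rises called with 4SU alone, at 1.46-fold (log2 0.54, SE 0.14, limma adjusted p = 0.0192). That call was lost under median centring (log2 0.42, adjusted p = 0.0505) and quantile normalisation (0.38, adjusted p = 0.0829). It was also lost without 4SU replicate 1 (0.55, adjusted p = 0.0597), 4SU replicate 2 (0.43, adjusted p = 0.0932) or untreated replicate 3 (0.43, adjusted p = 0.0894). 4SU+UVA exceeded UVA by 0.25 on the log2 scale without passing (limma adjusted p = 0.136), and the interaction was -0.29 with a 95% interval of -0.71 to 0.13 (limma adjusted p = 0.311).

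Among the 10 mRNAs, KLF2 and KLF6 passed the test of the interaction, with a larger rise after light in cells that had 4SU. By the same rule 10.7% of all tested genes were called higher for the interaction. KLF2, known for keeping endothelial cells and lymphocytes quiescent, and KLF6, a widely expressed early-response factor, both bind GC-rich promoter elements through C2H2 zinc fingers. Their promoter stretches are shown because of that result. They are the 250 bases before the RefSeq start (GRCh38.p14) at chr19:16324576-16324825 (plus strand) for KLF2 and chr10:3785210-3785459 (minus strand) for KLF6. Capitals mark GCGGGGGCG, the EGR site, and CACGTG, the E-box that MYC and its partners bind.
KLF2: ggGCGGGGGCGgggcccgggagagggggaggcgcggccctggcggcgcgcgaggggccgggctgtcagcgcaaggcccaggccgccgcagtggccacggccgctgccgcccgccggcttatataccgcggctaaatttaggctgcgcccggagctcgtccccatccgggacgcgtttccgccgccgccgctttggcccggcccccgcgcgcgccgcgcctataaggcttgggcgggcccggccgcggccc
KLF6: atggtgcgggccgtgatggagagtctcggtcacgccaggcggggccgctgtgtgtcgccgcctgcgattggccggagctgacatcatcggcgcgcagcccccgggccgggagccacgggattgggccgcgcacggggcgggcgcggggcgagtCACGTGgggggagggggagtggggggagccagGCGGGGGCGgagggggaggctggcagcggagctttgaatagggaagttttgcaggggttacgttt
Each held 1 EGR match, at 248 to 240 bases before the start in KLF2 and 65 to 57 bases in KLF6, and KLF6 also held 1 E-box, a string present in 6.34% of windows. The EGR match was thus in the windows of BTG2, KLF2 and KLF6, though not in that of BTG1, and in 4.72% of all windows. These windows were shown because of their results here, and the share over all windows was not matched for base content. An enrichment of the match therefore cannot be read from these values. Neither window held TGACG. In KLF4, which was not called in any comparison, the window held 2 TGACG matches and 1 E-box.

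KLF2 had 19.2, 20.7 and 17.1 RPKM with 4SU+UVA, 6.13, 6.77 and 5.81 RPKM with 4SU, 9.61, 7.97 and 10.1 RPKM with UVA, and 6.00, 5.78 and 6.14 RPKM in untreated cells. The 4SU+UVA libraries stood above all others by a wide margin, and the UVA libraries lay between them and the rest. Light raised KLF2 by 2.89-fold in cells with 4SU (log2 1.53, SE 0.12, limma adjusted p = 2.14e-07). Without 4SU it rose by 1.5-fold (log2 0.58, SE 0.12, limma adjusted p = 0.0275). The interaction of 0.95 (95% interval 0.60 to 1.30) passed, with limma adjusted p = 0.000762, and kept between 0.85 and 1.05 in all 20 settings, where adjusted p reached 0.00282. The call with UVA alone was less firm. It was lost in 10 of the 20, among them median centring (log2 0.50, adjusted p = 0.0901), quantile normalisation (0.48, adjusted p = 0.135) and the fits without untreated replicate 1, 2 or 3 or without UVA replicate 1 or 3 (0.52 to 0.60, adjusted p = 0.0882 to 0.157).

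KLF6 had 35.9, 29.8 and 35.0 RPKM with 4SU+UVA, 12.4, 14.3 and 13.2 RPKM with 4SU, 15.2, 13.9 and 15.3 RPKM with UVA, and 10.2, 12.2 and 12.3 RPKM in untreated cells. The lowest 4SU+UVA library held 29.8 RPKM, while no other library exceeded 15.3 RPKM. Light raised KLF6 by 2.47-fold with 4SU (log2 1.30, SE 0.10, limma adjusted p = 3.47e-07). Without 4SU the UVA libraries lay above the untreated ones, but the change of 0.34 did not pass (SE 0.10, limma adjusted p = 0.275). Of the 10 mRNAs KLF6 had the smallest p for the interaction, at 0.96 (95% interval 0.65 to 1.27, limma adjusted p = 0.000321), and it kept between 0.91 and 1.07 in all 20 settings. Of all tested genes 10.7% lay above additivity by the same rule, and of the 10 mRNAs only KLF2 and KLF6 did.

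**Figure D3:**
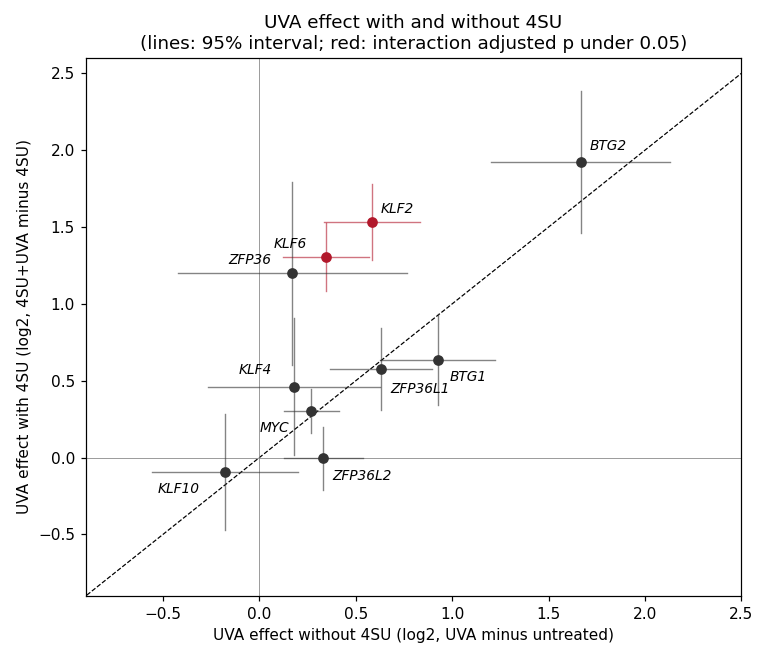
UVA effect on each mRNA in cells with 4SU (vertical axis, 4SU+UVA minus 4SU) against the UVA effect without 4SU (horizontal axis, UVA minus untreated), both on the log2(RPKM + 0.5) scale, with 95% intervals as lines and equality as the dashed diagonal. KLF2 and KLF6 (red, interaction adjusted p under 0.05) lie above the diagonal by 0.95 and 0.96, while ZFP36 lies above it by 1.03 (95% interval 0.18 to 1.87) and ZFP36L2 below it at -0.34 (-0.63 to -0.05) without passing after adjustment, and the intervals for the other 6 include 0.

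KLF4, a pluripotency and epithelial differentiation factor, had 5.36, 8.43 and 5.15 RPKM with 4SU+UVA, 3.41, 5.82 and 4.07 RPKM with 4SU, 5.07, 4.46 and 6.50 RPKM with UVA, and 4.95, 3.94 and 5.02 RPKM in untreated cells. All 4SU+UVA libraries exceeded the untreated ones, with replicate 2 standing apart and the others just above. The change of 0.38 had a 95% interval of -0.06 to 0.83 (limma adjusted p = 0.129). Against 4SU alone the difference was 0.46 (limma adjusted p = 0.0865), and it passed without 4SU replicate 2, at 0.65 (adjusted p = 0.0271). KLF10, which relays transforming growth factor beta signals, had 5.14, 4.32 and 5.83 RPKM with 4SU+UVA, 6.16, 5.10 and 5.09 RPKM with 4SU, 3.74, 4.23 and 6.40 RPKM with UVA, and 4.69, 5.54 and 5.90 RPKM in untreated cells. Its libraries overlapped in all comparisons. The log2 change with 4SU+UVA was -0.07 with a 95% interval of -0.45 to 0.30 (limma adjusted p = 0.737), so a rise of the size seen in KLF2 or KLF6 lies outside the interval. Relative to the median gene KLF10 lay at -0.31.

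The 3 mRNAs of the ZFP36 family, whose proteins carry AU-rich mRNAs to decay, were all called higher with 4SU+UVA. By the same rule 40.6% of all tested genes were higher, and the calls of ZFP36 and ZFP36L2 did not hold in every setting. None of the 3 passed for the interaction. The promoter of ZFP36L1 is shown because it alone among the windows of these mRNAs held a full CRE. RefSeq gives ZFP36L1 2 starts, and the downstream one lies behind the 250 bases at chr14:68793417-68793666 (minus strand, GRCh38.p14), with the CRE, TGACGTCA, in capitals.
ZFP36L1: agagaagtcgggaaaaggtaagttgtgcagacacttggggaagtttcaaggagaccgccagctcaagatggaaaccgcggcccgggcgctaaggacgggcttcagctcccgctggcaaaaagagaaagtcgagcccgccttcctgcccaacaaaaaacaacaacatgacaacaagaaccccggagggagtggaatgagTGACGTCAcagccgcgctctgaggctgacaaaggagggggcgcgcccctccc
The CRE lies 52 to 45 bases before that start, and since it reads the same on both strands it holds 2 overlapping TGACG matches. The full CRE was found in 1.65% of windows. The window of the upstream ZFP36L1 start held 1 TGACG, and that of ZFP36 held none of the motifs. The CArG box bound by serum response factor, searched by name and present in 1.16% of windows, was in none of the 8 windows of the 7 mRNAs with a sequence in the table. Which start the counted transcripts used was not tested.

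ZFP36 (tristetraprolin) had 6.63, 8.13 and 8.27 RPKM with 4SU+UVA, 2.15, 2.83 and 4.56 RPKM with 4SU, 2.56, 4.11 and 6.70 RPKM with UVA, and 4.23, 2.82 and 4.02 RPKM in untreated cells. The 4SU+UVA libraries lay above the 4SU and untreated ones, while UVA replicate 3 lay just above the lowest of them. It rose 1.97-fold against untreated cells (log2 0.98, SE 0.28, limma adjusted p = 0.00781), a call lost under quantile normalisation (0.69, adjusted p = 0.0549). Against 4SU alone it rose 2.29-fold (log2 1.20, SE 0.28, limma adjusted p = 0.00305). These values rest on 27 to 64 reads per library in 4SU+UVA, 15 to 36 in 4SU, 15 to 54 in UVA and 26 to 41 in untreated cells. The interaction of 1.03 (95% interval 0.18 to 1.87) was as large as that of KLF2 and KLF6 but did not pass (limma adjusted p = 0.0714). It passed without 4SU replicate 3 (1.28, adjusted p = 0.0271) or UVA replicate 3 (1.34, adjusted p = 0.0145). With each library left out in turn it ran from 0.72 to 1.34, so single libraries moved it both ways.

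ZFP36L1 had 14.6, 13.6 and 17.5 RPKM with 4SU+UVA, 8.55, 10.8 and 10.8 RPKM with 4SU, 14.8, 18.1 and 14.9 RPKM with UVA, and 9.81, 9.73 and 10.7 RPKM in untreated cells. Every irradiated library exceeded every unirradiated one. ZFP36L1 was 1.48-fold higher with 4SU+UVA than in untreated cells (log2 0.56, SE 0.12, limma adjusted p = 0.0014). UVA alone raised it 1.55-fold (log2 0.63, SE 0.12, limma adjusted p = 0.0274), a call lost in 10 of 20 settings, including each fit without 1 of the 6 libraries compared (0.54 to 0.68, adjusted p = 0.0538 to 0.172). With 4SU present light raised it 1.49-fold (log2 0.58, SE 0.12, limma adjusted p = 0.0018), and the interaction was -0.05 (95% interval -0.43 to 0.32, limma adjusted p = 0.861). ZFP36L2 had 29.8, 26.5 and 23.2 RPKM with 4SU+UVA, 27.2, 27.3 and 25.1 RPKM with 4SU, 25.3, 24.6 and 28.6 RPKM with UVA, and 20.3, 20.4 and 21.3 RPKM in untreated cells. Each treated library lay above the untreated ones, and the 3 treated groups overlapped.

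ZFP36L2 was 1.27-fold higher with 4SU+UVA (log2 0.35, SE 0.10, limma adjusted p = 0.00648) and 1.28-fold higher with 4SU (log2 0.35, SE 0.10, limma adjusted p = 0.0251). With UVA the change of 0.33 did not pass (limma adjusted p = 0.24). The 4SU+UVA rise was only 0.11 above the median gene and was lost under median centring (0.18, adjusted p = 0.151). The 4SU call was lost under median centring (0.23, adjusted p = 0.138) and quantile normalisation (0.28, adjusted p = 0.078). It was also lost without 4SU replicate 1 or 2 or without untreated replicate 1, 2 or 3 (0.33 to 0.37, adjusted p = 0.0579 to 0.0866). Light in cells with 4SU left ZFP36L2 at 26.5 ± 3.31 RPKM, against 26.5 ± 1.25 RPKM with 4SU alone (SD, n = 3 each). The interaction of -0.34 (95% interval -0.63 to -0.05) did not pass (limma adjusted p = 0.0842) except without 4SU+UVA replicate 1 (-0.43, adjusted p = 0.0294).

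MYC, which drives genes of ribosome production and cell growth, moved little. It had 180.0, 183.0 and 175.1 RPKM with 4SU+UVA, 139.1, 151.0 and 145.7 RPKM with 4SU, 178.9, 163.5 and 153.2 RPKM with UVA, and 143.7, 129.1 and 137.3 RPKM in untreated cells. The irradiated libraries all lay above the unirradiated ones. The rise with 4SU+UVA was 1.31-fold (log2 0.39, SE 0.07, limma adjusted p = 0.000164), or 0.16 above the median gene, and it remained called under median centring (0.22, adjusted p = 0.0153). With UVA alone the change was 0.27 (SE 0.07) and did not pass (limma adjusted p = 0.11), although voom on whole reads called it (adjusted p = 0.0331). With 4SU present, light raised MYC by 0.30 (SE 0.07, limma adjusted p = 0.0019), and the interaction was 0.03 with a 95% interval of -0.17 to 0.23 (limma adjusted p = 0.833). 4SU+UVA exceeded UVA by 0.12 without passing (limma adjusted p = 0.134), and passed only without UVA replicate 1 (0.18, adjusted p = 0.0427).

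Adding light to 4SU (4SU+UVA against 4SU) raised 7 of the 10 mRNAs, against 25% of all tested genes, with a median of 0.61 against 0.09 over all genes. KLF4, KLF10 and ZFP36L2 did not pass. The libraries did not overlap at 7, against 29.6% of tested genes. Adding 4SU to light (4SU+UVA against UVA) raised 3 of the 10, KLF2, KLF6 and ZFP36, against 34.7% of all tested genes. The libraries did not overlap at KLF2, KLF6 and BTG1, a separation upward at 37.9% of tested genes. The median of the 10 in this comparison was 0.17, against 0.18 for all genes. KLF6 changed by 2.22-fold here (log2 1.15, SE 0.10, limma adjusted p = 5.7e-07) and KLF2 by 2.01-fold (log2 1.0, SE 0.12, limma adjusted p = 5.88e-06). ZFP36 changed by 1.75-fold (log2 0.80, SE 0.28, limma adjusted p = 0.0245), a call lost in 6 of 20 settings, among them the fits without 4SU+UVA replicate 2 or 3 or UVA replicate 1 or 2 (0.50 to 0.80, adjusted p = 0.0562 to 0.131). These comparisons share libraries with those above and are not independent of them.

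**Figure D4:**
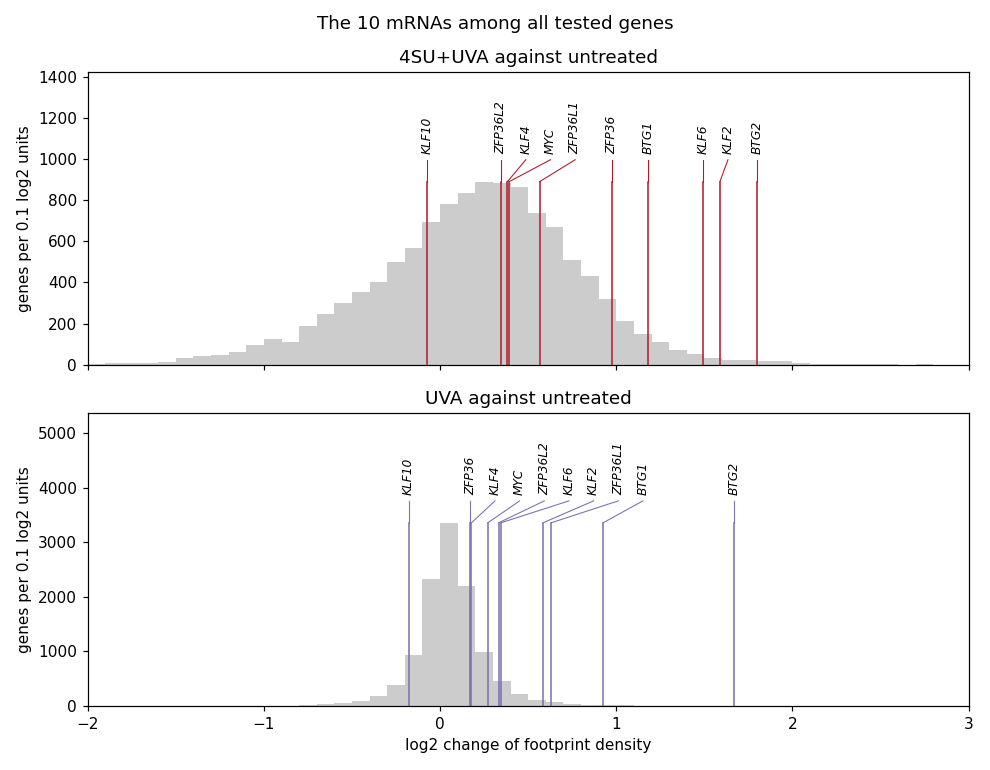
Number of tested genes (vertical axis) per 0.1 units of log2 change (horizontal axis, drawn from -2 to 3) with 4SU+UVA and with UVA against untreated cells, with the 10 mRNAs as lines. BTG2, KLF2, KLF6 and BTG1 lie in the upper tail with 4SU+UVA at 1.80, 1.59, 1.49 and 1.18, and BTG2 and BTG1 stand at 1.67 and 0.92 in the narrower UVA distribution.

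Likeness of pattern was measured over the 12 libraries by Pearson's r of log2(RPKM + 0.5) against the 8122 other tested genes with a mean of at least 5 RPKM. The closest gene to BTG2 was ENSG00000116717.13 (r = 0.982) and the closest to KLF6 was ENSG00000087074.8 (r = 0.982). For KLF10 the highest value was 0.844. These values describe the 12 libraries, which fall into the 4 groups, and carry no p. Each is the largest of 8122, so its size partly follows from the search. What such a search returns for an unrelated gene was not computed. No symbol is paired with other identifiers in the sources used here, so other genes of these pathways, and markers of the cell line, were not analysed.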

How the data were processed

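Ribosome footprints of 12 HAP1 libraries were deposited by the authors as 1 table of RPKM values for 19580 genes, 1 transcript each. The aligner was STAR 2.7.10a and the build hg38, per the submitters' processing notes. How reads were counted per transcript is not given in the sources used here. Per the labels' protocols, lysates were treated with RNase I and footprints of pelleted ribosomes were amplified by PCR, with no molecular identifier described, so reads are not independent molecules. Groups and replicates came from the titles.

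Library totals, transcript lengths and reads were recovered as the whole numbers behind the RPKM values, where 100% of positive values were whole within 0.001 reads. Each length was the smallest that made a gene's values whole. The totals were scaled so that the reads came nearest to them without exceeding them, and the genes held at least 99.9% of each total. Both figures thus partly follow from the search. Replicate pairs differed by more than counting error (chi-square per gene 1.7 to 5.46).

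Changes were tested with limma 3.58.1 in R 4.3.3 on log2(RPKM + 0.5), with 4 group means over 12 libraries, eBayes with a variance trend, and Benjamini-Hochberg adjustment over 11510 genes in each of 6 contrasts, two-sided. The fit and the recovery were tested on simulated data. All 10 members are described. The alternatives were 2 pseudocounts, no filter, median centring, quantile normalisation, no variance trend, a replicate block, voom on whole reads, and each library left out, 20 settings in all. The members, their symbols, which came with their identifiers, and the lists were chosen with earlier results of these data known. The lists of related genes and cell markers were not used, since the table pairs its identifiers with no symbols. Promoter sequences are from RefSeq (GRCh38.p14). Of the 10 mRNAs, 7 matched by symbol.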

Additional observations from a re-analysis of the deposited data

Results flagged for a closer look

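The response to UVA differed between cells with and without 4SU for 2 of the 10 mRNAs, by the test of the interaction itself. By the same rule 2857 of the 11510 tested genes were called, 1233 of them (10.7%) higher. The count by itself does not set these mRNAs apart. For KLF2 the UVA effect with 4SU exceeded that without it by 0.95 on the log2 scale (SE 0.16, limma adjusted p = 0.000762). For KLF6 it did so by 0.96 (SE 0.15, limma adjusted p = 0.000321). All 3 4SU+UVA libraries lay above the other 9 for both. RPKM values are relative to each library's own total, and the part of any cause in these differences was not tested.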

How the results depend on the processing

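Of 60 log2 changes (10 mRNAs in 6 contrasts), 26 were called, and none of these 26 turned its sign in any of the 20 settings. The calls of BTG1 and BTG2 with UVA alone, of KLF2 and KLF6 for the interaction, and the 7 calls for 4SU+UVA against 4SU were kept in all 20. The numbers of mRNAs called moved by over 1.5 times in 2 comparisons. With UVA alone 4 became 2 without a filter on low values, 2 under median centring, 2 under quantile normalisation and 2 without the variance trend, and 2 to 4 with each library left out, while voom called 5. With 4SU alone 2 became 0 under median centring and 0 under quantile normalisation (limma, with 2 at an unadjusted p under 0.05 in both, and 2 called by voom), and 0 to 2 with each library left out. The labels share replicate numbers, but over all tested genes deviations of same-numbered libraries did not correlate (0 of 18 over 0.1, range -0.046 to 0.068). The numbers were therefore not taken as pairs. A correlation over all genes cannot exclude something shared at some of them. With a replicate block the numbers called were 8 for 4SU+UVA, 2 for 4SU and 3 for UVA against untreated, 7 and 3 for 4SU+UVA against 4SU and UVA, and 3 for the interaction. There ZFP36 was gained for the interaction (1.03, adjusted p = 0.0305), and KLF2 was lost with UVA alone (0.58, adjusted p = 0.0593).

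The number of all genes called with UVA alone was 75, and 45 without a filter, 42 under quantile normalisation and 27 without the variance trend. With 4SU alone it was 1654, and 726 to 2050 with each library left out (726 without 4SU replicate 1, 772 without 4SU replicate 2, 872 and 869 without untreated replicates 2 and 3). Scaling moved the split of higher and lower genes. With 4SU+UVA against untreated cells it was 4674 and 2122, against 3107 and 2888 (median centring) and 3011 and 2910 (quantile normalisation). With 4SU it was 1295 and 359, against 640 and 1080, and 678 and 497. With UVA it was 32 and 43, against 19 and 48, and 22 and 20. For 4SU+UVA against 4SU it was 2877 and 2185, against 2499 and 2443, and 2360 and 2599, and against UVA it was 3989 and 2278, against 3138 and 2683, and 2900 and 2820. For the interaction it was 1233 and 1624, against 1435 and 1409 under median centring.

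The sign turned for changes near 0 that did not pass. With 4SU alone, median centring gave -0.04 for MYC, -0.07 for KLF2 and -0.11 for KLF10, quantile normalisation -0.10 for KLF2 and -0.15 for KLF10, and voom -0.01 for KLF10. For 4SU+UVA against 4SU, ZFP36L2 was 0.00 under quantile normalisation and 0.02 with voom. For 4SU+UVA against UVA, quantile normalisation gave -0.01 for KLF4 and -0.14 for KLF10, and median centring -0.07 for ZFP36L2. For the interaction, quantile normalisation gave 0.02 for ZFP36L1. With each library left out, such values ran, for 4SU+UVA against untreated, from -0.17 to 0.03 (KLF10). For 4SU they ran from -0.27 to 0.07 (KLF4), -0.07 to 0.08 (KLF10), -0.07 to 0.09 (ZFP36L1) and -0.30 to 0.01 (BTG2), and for UVA from -0.14 to 0.48 (ZFP36). For 4SU+UVA against 4SU they ran from -0.19 to 0.01 (KLF10) and -0.09 to 0.08 (ZFP36L2). For 4SU+UVA against UVA they ran from -0.01 to 0.34 (KLF4), -0.04 to 0.31 (KLF10), -0.17 to 0.03 (ZFP36L1), -0.07 to 0.11 (ZFP36L2) and -0.17 to 0.30 (BTG2). For the interaction they ran from -0.02 to 0.09 (MYC), -0.06 to 0.29 (KLF10), -0.16 to 0.04 (ZFP36L1) and -0.05 to 0.44 (BTG2). The causes were not tested.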

Other observations

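BTG2 was lowest in replicate 3 in each of the 4 groups, at 52.6 RPKM with 4SU+UVA, 12.5 with 4SU, 35.2 with UVA and 12.9 in untreated cells. What replicates of the same number share is not stated in the labels.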
